A study of Mus musculus with 48 samples.

Results

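The comparison described here asks how the response of salivary gland organoids to 15 Gy of protons at day 6 after irradiation differed from the response at day 2. It is the contrast (15 Gy minus control at day 6) minus (15 Gy minus control at day 2), computed on the log2 scale for each gene and called the interaction below. The sample titles gave 12 of the 48 libraries of the series to its 4 groups, with 3 libraries in each. A positive interaction means that the effect of 15 Gy was higher at day 6, and a negative one that it was lower at day 6, whatever the sign of either effect.

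Organoids are cultures in which dissociated cells regrow a small epithelium. The tissue was the submandibular salivary gland of C57BL/6 mice aged 8 to 12 weeks, and each group held organoids of mouse 1, mouse 2 and mouse 3. All 4 groups were grown in Matrigel, a basement membrane gel, in the same WRY medium, which contains EGF, FGF2, insulin, dexamethasone, the kinase inhibitor Y27632 and conditioned media with R-spondin1 and Wnt3a. The 15 Gy groups were irradiated in the plateau part of the proton beam at culture day 5, the controls were left unirradiated, and medium was refreshed in every condition afterwards. RNA was taken 2 or 6 days later, and QuantSeq, which reads the 3′ ends of polyadenylated RNA, gave 1 library per sample. Each day had its own controls, so the interaction includes whatever changed in unirradiated organoids between the days.

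Ducts of the salivary gland hold basal cells, which carry the keratins Krt5 and Krt14 and act as progenitors, below luminal duct cells. In culture such basal cells can turn towards a stratified squamous programme, with the keratins and envelope proteins of epidermis and oral mucosa. Ionizing radiation breaks DNA, and nucleic acids that leak from damaged nuclei or mitochondria are known triggers of the interferon pathway, whose target genes include RNA sensors and antigen-presenting molecules.

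The 12 libraries held 1812349 to 3225080 counts assigned to genes. Control libraries of day 6 were the shallowest, at 1812349 to 2244980, and those of 15 Gy at day 6 the deepest, at 2806333 to 3225080. The TMM scaling factors of these groups were 0.905 to 0.982 and 1.05 to 1.06. Replicates of 15 Gy at day 6 differed most among themselves, with a chi-square per degree of freedom of 8.84 to 16.4 between pairs against 2.39 to 7.60 in the other groups. Epcam, Krt7, Krt5, Krt14 and Trp63 were counted in all 12 libraries. Of the defining markers of other cells, the endothelial gene Cdh5 was at 0 in all 12, the leukocyte gene Ptprc had at most 1 count in a library, and Col1a1 and Pdgfra of fibroblasts at most 3. Few members of those lists passed the filter on low counts. They were 1 of 15 fibroblast genes (Vim, 105 to 170.4 CPM at day 2 and 24.6 to 51.3 at day 6), 1 of 11 endothelial genes (Flt1, 6.16 to 23.7 CPM) and 2 of 17 immune genes (Cd14 and Cd68, summing to 7.61 to 16.5 CPM at day 2 and 63.5 to 94.2 at day 6), where CPM is a count relative to the TMM-normalised library total. Of 12 myoepithelial genes, 4 passed and summed to 526 to 750.04 CPM, mostly from Cald1 and Tpm2. None of these 8 genes had a called interaction, and their part in the results was not tested. The acinar water channel Aqp5 had 1 to 26 counts.

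Of 11177 genes tested with edgeR's quasi-likelihood test and Benjamini-Hochberg adjustment, 295 were called at an adjusted p under 0.05, which is 2.64%. The interaction was higher for 117 genes (1.05%) and lower for 178 (1.59%). All 295 had the same sign in all 3 mice, but the calls came from these same libraries, so that agreement is not separate support. The median log2 interaction was 1.15 among the higher and -1.24 among the lower genes, and 79 and 120 of them exceeded 1 in size. With library size alone in place of TMM scaling, 252 genes were higher and 127 lower, and the median over all genes moved from -0.02 to 0.09. After thinning every library to the lowest total of the 24 proton libraries, 1311666 in a 7 Gy day 2 library, 99 were higher and 143 lower. The number of calls depended on single libraries. It was 94 without the control day 2 library of mouse 2 and 177 without that of mouse 3. It was 127 without the 15 Gy day 2 library of mouse 1 and also without that of mouse 2. Without the control day 6 library of mouse 2 or mouse 3 it was 125 or 195, and without the 15 Gy day 6 library of mouse 1 it was 590. Without the 15 Gy day 6 library of mouse 2 it was 206, of which 66 were higher. Of the 295 calls, 76 held with each of the 12 libraries left out in turn, 29 higher and 47 lower, and no gene changed sign. The genes described in full below come mainly from these 76, a choice made after their values were seen.

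The effect of 15 Gy against control was called for 937 genes at day 2 (8.38%) and for 2779 at day 6 (24.9%). The day 2 count was 591 or 578 without the control library of mouse 2 or mouse 3, and 480 without the 15 Gy library of mouse 2. Most interactions came with an effect called at day 6 alone. Of the 178 lower genes, 130 were lower at day 6 and not called at day 2, 21 were higher at day 2 only, and 11 were higher at day 2 and lower at day 6. Of the 117 higher genes, 69 were higher at day 6 only, 24 were lower at day 2 only, 16 were higher on both days and 4 were lower at day 2 and higher at day 6. Seen along time, 925 genes were higher (8.28%) and 1023 lower (9.15%) at day 6 than at day 2 in controls, and 1625 and 1645 with 15 Gy. Of the 178 genes with a lower interaction, 78 were not called between the days in controls and fell in irradiated organoids. Another 59 fell in both, and 29 rose in controls and were not called in irradiated organoids. Among the higher genes, 76 rose between the days in irradiated organoids alone.

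**Figure D1:**
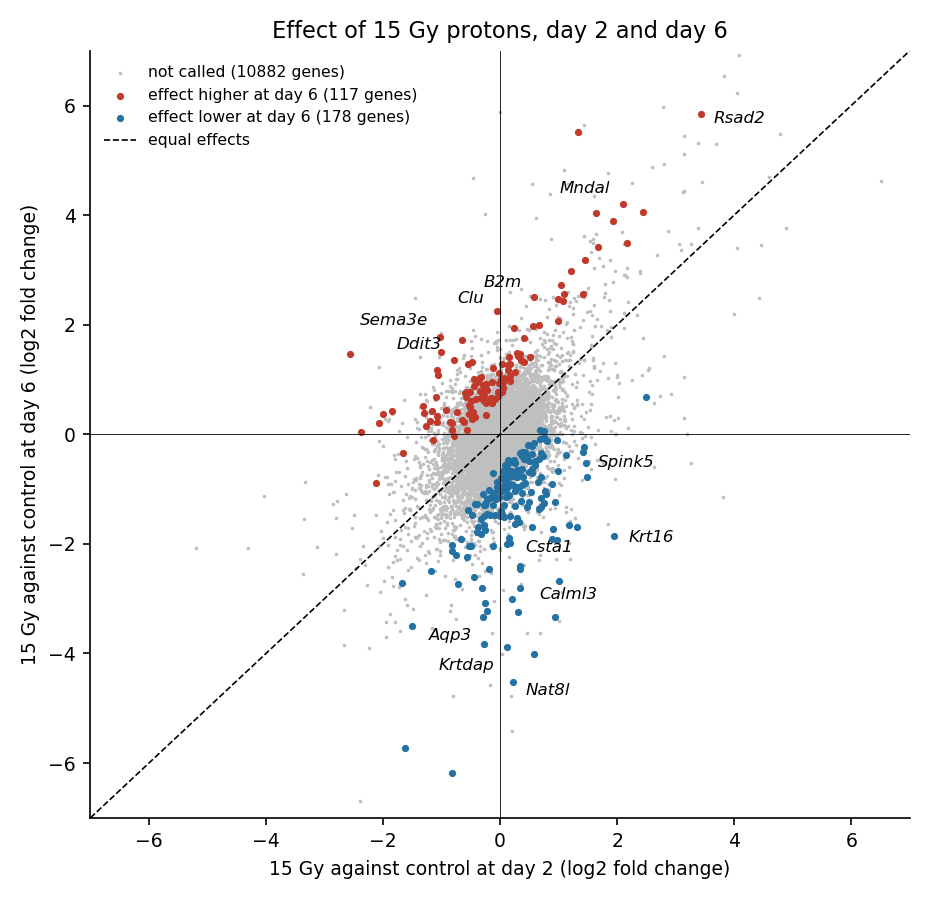
Each point is a gene, with the log2 fold change of 15 Gy against control at day 2 on the x axis and at day 6 on the y axis, and the dashed line marks equal effects. The 117 genes with a higher interaction (red) lie above the line and the 178 with a lower one (blue) below it, and 6 of the 11177 genes fall outside the axes.

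Of the 44 gene lists examined, the squamous list held the most calls. In it 21 of 39 measured genes had a lower interaction and 0 a higher one, and its median was -1.51 against -0.02 for all genes. Over all genes, 1.59% were lower and 1.05% higher. Also lower, with 0 higher, were 8 of 25 cholesterol synthesis genes, 6 of 20 basal duct genes and 9 of 36 hypoxia and glycolysis genes. In the other direction, 13 of 63 interferon-stimulated genes were higher and 1 lower, with a median of 1.14. The lists of nucleic acid sensing and MHC class I presentation had 4 higher of 18 and 4 higher of 20. The medians of these 7 lists kept their sign with library size alone and with DESeq2. Some lists share called genes, as Ifih1 is in the interferon and sensing lists and Aqp3 in the squamous and basal ones.

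**Figure D2:**
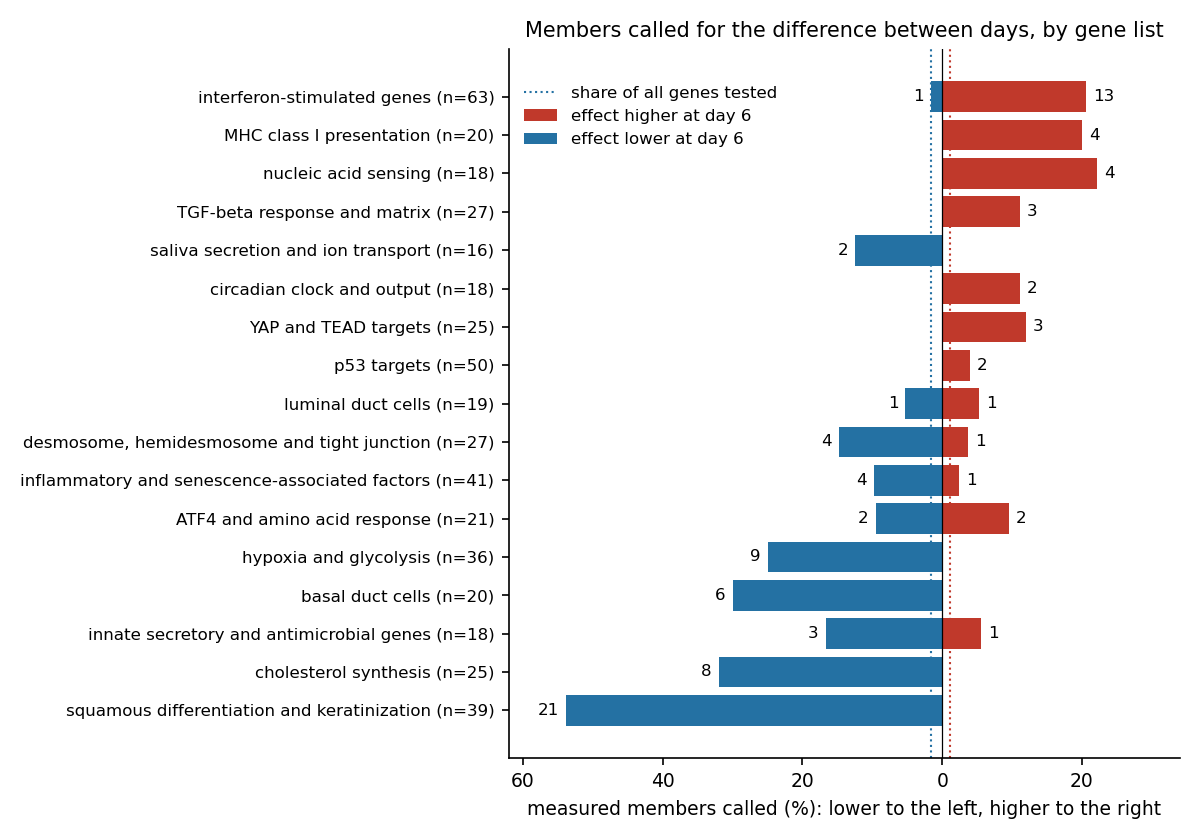
Bars give the percentage of each list's measured members called with a lower (blue, left) or higher (red, right) interaction, with the number called beside each bar, for lists of at least 15 measured genes with at least 2 calls. Dotted lines mark the shares of all genes tested, 1.59% lower and 1.05% higher, and the squamous list reaches furthest to the left with 21 of 39.

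Most squamous genes were lower than their controls with 15 Gy at day 6, and at day 2 more of them were higher than lower. In controls the list declined with time, with 28 of 39 lower at day 6 than at day 2 (9.15% of all genes) and a median of -1.50. In irradiated organoids 38 of 39 were lower (14.7% of all genes), with a median of -3.20. At day 2, 12 of the 39 were higher with 15 Gy than in controls (4.07% of all genes) and 4 lower (4.31%), and at day 6 24 were lower (13.4%) and 0 higher (11.5%). The sum of the list was 16908 to 26233 CPM with 15 Gy at day 2 and 3652 to 4061 CPM at day 6, against 13701 to 18353 and 7045 to 9819 in controls. In bulk samples, fewer cells of a type and less RNA per cell cannot be told apart. The number of lower calls was 12 without the control day 2 library of mouse 2 and 13 without the 15 Gy day 2 library of mouse 1, and 11 of the 21 calls held with every library left out.

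Krt13, a keratin of stratified epithelia that do not cornify, was at 727, 643 and 651 CPM in mice 1 to 3 in controls at day 2 and at 675, 609 and 374 with 15 Gy. By day 6 it was at 258, 170.1 and 143 in controls and at 19.02, 19.1 and 18.5 with 15 Gy. The groups overlapped at day 2 and were far apart at day 6, where the irradiated libraries were nearly equal to each other. Its interaction was -3.05 ± 0.38 (log2 ± SE, adjusted p = 1.53e-05, edgeR). Calml3, a calmodulin-like protein of epithelia, had the smallest adjusted p of all genes. It was at 270.2, 246 and 190.2 CPM in controls and 297, 315 and 264 with 15 Gy at day 2, and at 95.8, 78.5 and 59.5 in controls and 7.31, 9.23 and 8.27 with 15 Gy at day 6, an interaction of -3.55 ± 0.31 (adjusted p = 9.8e-08, edgeR). Krtdap, a protein secreted by differentiating keratinocytes, showed the same order. Its controls went from 593, 559 and 448 CPM at day 2 to 61.7, 51.5 and 44.8 at day 6, while the 15 Gy libraries went from 675, 696 and 369.5 to 1.46, 7.52 and 1.99. The interaction of Krtdap was -4.0 ± 0.51 (adjusted p = 2.29e-05, edgeR).

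Stress keratins included members that were higher with 15 Gy at day 2. Krt16, which is induced in wounded and inflamed epithelia, was at 409.9, 172 and 184 CPM in controls and at 1111, 1259 and 587 with 15 Gy at day 2. At day 6 the values were 42.5, 35.5 and 20.9 in controls and 7.31, 8.200 and 11.9 with 15 Gy. No irradiated library overlapped a control on either day, above at day 2 and below at day 6. The effect of 15 Gy was 1.94 at day 2 (adjusted p = 0.00118) and -1.85 at day 6 (adjusted p = 0.0131), and the interaction -3.79 ± 0.65 (adjusted p = 0.0017), all by edgeR. Its filament partner Krt6a was also called in opposite directions, at 0.65 and -0.87, with an interaction of -1.51 ± 0.27. Krt6b was called at day 6 only (-2.68) and had an interaction of -3.69 ± 0.61. Krt6a and Krt6b are near-identical, so reads may have been shared between them.

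The protease inhibitors Spink5 and Csta1, the latter outside the list, were also called in opposite directions on the 2 days. Spink5, which restrains the proteases that shed surface cells, was at 568, 531 and 387 CPM in controls and 1858, 1455 and 856 with 15 Gy at day 2, and at 166, 154 and 119 in controls and 80.5, 91.6 and 83.04 with 15 Gy at day 6. Its effect was 1.49 at day 2 and -0.78 at day 6, with an interaction of -2.27 ± 0.32 (adjusted p = 0.000136, edgeR). Csta1, a stefin that inhibits cysteine proteases, had 142, 114 and 117 CPM in controls and 339, 338 and 255 with 15 Gy at day 2, then 23.2, 20.05 and 18.8 in controls and 5.85, 5.47 and 7.94 with 15 Gy at day 6. The groups of Csta1 did not overlap on either day, and its interaction was -3.01 ± 0.35 (adjusted p = 5.42e-06, edgeR). Stefin A genes form a cluster of close copies, so the split of reads between Csta1 and its neighbours is uncertain. Sprr1a, a precursor of the cornified envelope, and Grhl1, a transcription factor of epidermal differentiation, had interactions of -1.80 ± 0.37 and -1.41 ± 0.29.

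**Figure D3:**
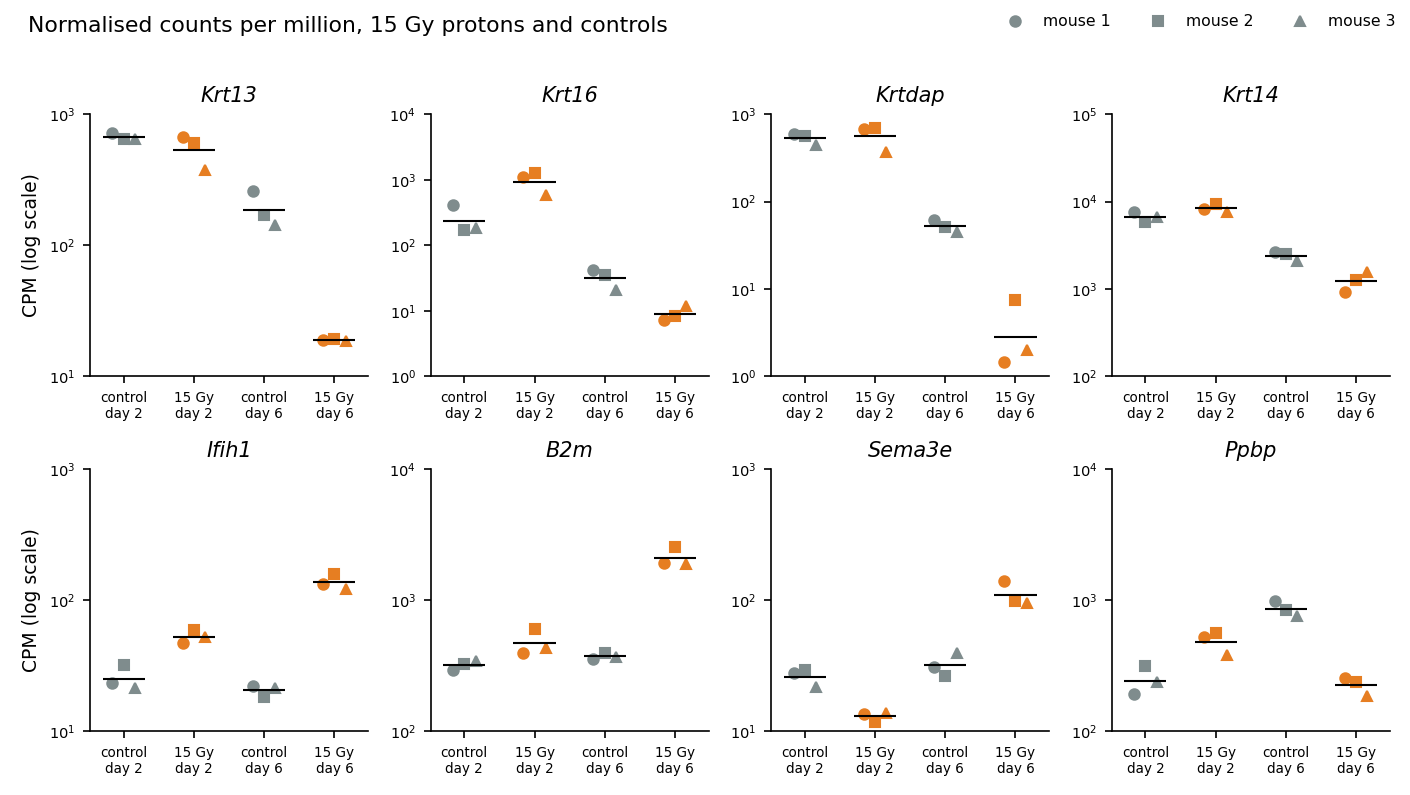
Points give normalised CPM on a log axis for mouse 1 (circle), mouse 2 (square) and mouse 3 (triangle) in controls (grey) and with 15 Gy (orange), and lines mark the geometric mean of each group. Krt13, Krt16, Krtdap and Krt14 are lowest with 15 Gy at day 6, Ifih1, B2m and Sema3e are highest there, and Ppbp is above its control at day 2 and below it at day 6.

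Promoters of called squamous genes were searched for the AP-1 motif TGANTCA, which reads the same on both strands and binds Fos and Jun factors. It was found in the window from 250 bases before to 50 after the start of 11 of 24 measured squamous genes with a RefSeq promoter sequence (45.8%), and in 8.97% of 27025 gene symbols. Of the 13 called genes with a sequence, 7 held it. Krt13, Krtdap and Sprr1a are shown because they hold the motif and their interactions held with each library left out. Aqp3, Grhl1 and Cdsn also held and have a sequence without it. Shown are the 200 bases before the start on the minus strand for Krt13 and Sprr1a and the plus strand for Krtdap, from RefSeq on GRCm38.p6, with the motif in capitals. The stretches lie at chr11:100121567-100121766, chr7:30787705-30787904 and chr3:92485882-92486081. For Krt13 the first of 2 annotated starts is shown. A match is a description and not a shown binding site.
Krt13: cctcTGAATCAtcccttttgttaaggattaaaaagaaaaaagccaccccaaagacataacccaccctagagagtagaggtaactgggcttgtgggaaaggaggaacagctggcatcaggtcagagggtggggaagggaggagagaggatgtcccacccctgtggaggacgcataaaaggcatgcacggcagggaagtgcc
Krtdap: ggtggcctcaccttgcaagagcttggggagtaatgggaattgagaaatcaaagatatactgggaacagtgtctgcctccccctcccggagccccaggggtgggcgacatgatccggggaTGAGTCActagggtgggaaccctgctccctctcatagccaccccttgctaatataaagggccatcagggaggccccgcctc
Sprr1a: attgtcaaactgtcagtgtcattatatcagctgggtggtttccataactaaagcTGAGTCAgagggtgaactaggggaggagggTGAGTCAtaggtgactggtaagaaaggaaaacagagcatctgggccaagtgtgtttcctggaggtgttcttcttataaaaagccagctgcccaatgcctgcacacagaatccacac
In these stretches the match starts 196 bases before the start of Krt13 and 81 before that of Krtdap, and Sprr1a has matches at 146 and 116.

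Basal duct genes had a median interaction of -0.42. Krt14 was at 7558, 5805 and 6717 CPM in controls and 8329.6, 9355 and 7561 with 15 Gy at day 2, and at 2664, 2532 and 2085 in controls and 913, 1269 and 1577 with 15 Gy at day 6. The lowest 15 Gy value at day 2 was level with the highest control, and at day 6 all 15 Gy values lay below the controls. The interaction was -1.28 ± 0.25 (adjusted p = 0.00564, edgeR). Krt5, which pairs with Krt14 in the filaments of basal cells, had an interaction of -1.10 ± 0.19 (adjusted p = 0.00192) and Krt15 one of -1.16 ± 0.27 (adjusted p = 0.0173), which was 0.0673 without the 15 Gy day 2 library of mouse 2. Trp63, the transcription factor that specifies basal cells, was not called at -0.67 ± 0.25 (adjusted p = 0.144, edgeR). At day 6 against controls, 9 of the 20 basal genes were lower (13.4% of all genes) and 0 higher.

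Of the aquaporins, Aqp3 and Aqp4 were called. Aqp3, a member of the squamous, basal and saliva lists which passes water and glycerol at the basolateral side, was at 195, 148 and 209 CPM in controls and 158, 192 and 106 with 15 Gy at day 2, and at 43.5, 54.99 and 67.7 in controls and 2.93, 7.52 and 1.32 with 15 Gy at day 6. The ranges overlapped at day 2 and were separate at day 6, for an interaction of -3.55 ± 0.46 (adjusted p = 3e-05, edgeR). Aqp4, a water channel, was not called at day 2 (0.28) and had an interaction of -1.81 ± 0.27 (adjusted p = 0.000239, edgeR), with day 6 values of 141, 149 and 89.6 CPM in controls and 37.2, 53.6 and 41.03 with 15 Gy. Aqp5, the channel through which acinar cells secrete water, was at -2.35 at day 2 and -2.04 at day 6, and its interaction of 0.31 ± 0.75 was not called.

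Some genes were near 0 counts with 15 Gy at day 6. Sptssb, a small subunit of serine palmitoyltransferase in sphingolipid synthesis, was at 149, 175 and 146 CPM in controls and 89.7, 94.6 and 79.8 with 15 Gy at day 2. At day 6 controls held 26.2, 34.9 and 19.3 CPM and irradiated organoids 0, 0.342 and 0.662. The irradiated libraries of day 6 had 3 counts in all against 152 in controls, a ratio of 0.0134 with a counting interval of 0.00274 to 0.0399 (95%, exact). That ratio is scaled by total counts alone, without the TMM factors that the CPM values include. The interaction passed the test (adjusted p = 3.01e-07, edgeR), and no fitted size is given for groups of 3 counts or fewer. Nat8l, which makes N-acetylaspartate, was at 11.4, 12.6 and 8.65 CPM in controls and 0.293, 0.342 and 0.662 with 15 Gy at day 6, 62 counts against 4. Its interaction was -4.74 ± 0.67 (adjusted p = 0.000126, edgeR), a size that rests on those 4 counts. At day 2 its groups overlapped, at 139.7, 101 and 117 in controls and 147, 158 and 109.7 with 15 Gy. Tmprss11a, a membrane serine protease of stratified epithelia, Nrarp, a feedback target of Notch, and Gjb2, a connexin, had interactions of -2.50 ± 0.39, -2.15 ± 0.37 and -2.03 ± 0.43. Ephx3 and Ndufa4l2 were also among the 12 lowest, with 3 and 1 counts in the irradiated day 6 group. Their calls were lost without the control day 6 library of mouse 2 (Ephx3, adjusted p = 0.0744, edgeR) and in 9 of the 12 left-out fits (Ndufa4l2).

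The neutrophil-attracting chemokines Ppbp, Cxcl5 and Cxcl2 rose with time in controls. Ppbp was at 191, 315 and 237 CPM in controls and 519.9, 557 and 382 with 15 Gy at day 2, and at 978, 843 and 758 in controls and 256, 238 and 185 with 15 Gy at day 6. All irradiated libraries lay above the controls at day 2 and below them at day 6. The effect was 0.97 at day 2 (adjusted p = 0.00216) and -1.92 at day 6 (adjusted p = 7.64e-08), and the interaction -2.90 ± 0.29 (adjusted p = 3.92e-07), by edgeR. Cxcl5 went from 44.6, 47.5 and 45.1 CPM at day 2 to 1900.4, 1651 and 1045 at day 6 in controls, and from 86.8, 94.9 and 89.2 to 1129, 1105 and 650.1 with 15 Gy. It was called in opposite directions on the 2 days like Ppbp, although the day 6 ranges overlapped, and its interaction was -1.65 ± 0.30 (adjusted p = 0.00328, edgeR). Cxcl2 had an interaction of -1.79 ± 0.35 (adjusted p = 0.00559, edgeR), with 139, 177 and 146 CPM in controls and 81.3, 58.1 and 44.3 with 15 Gy at day 6. Tslp, a cytokine of barrier epithelia, was higher with 15 Gy at day 2 and not called at day 6, with 129, 138 and 121 CPM against 51.6, 46.6 and 41.1 in controls at day 2. Its interaction was -2.0 ± 0.36 (adjusted p = 0.00318, edgeR). In the whole list of inflammatory and senescence-associated factors, 4 of 41 were lower (1.59% of all genes) and 1 higher (1.05%). Without the 15 Gy day 6 library of mouse 1, 8 were lower. The higher one was Lcn2, which binds bacterial siderophores, at 1.42 ± 0.33 (adjusted p = 0.0211, edgeR), and 3 left-out libraries each ended its call. Cxcl10, an interferon-induced chemokine for T cells, was at 0.388, 0.913 and 1.01 CPM in controls and 14.3, 19.4 and 18.1 with 15 Gy at day 2, and at 4.94, 6.300 and 3.05 in controls and 64.95, 66.6 and 24.2 with 15 Gy at day 6. Its effect was called on both days (4.46 and 3.45) and its interaction of -1.01 ± 1.10 was not (adjusted p = 0.671, edgeR). The day 2 effect and the interaction of Cxcl10 rest on the few counts of the day 2 controls.

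Most cholesterol synthesis genes were not called at day 2 and lower with 15 Gy at day 6. With 15 Gy, 1 of 25 was higher (4.07% of all genes) and 3 lower (4.31%) at day 2, and 21 of 25 were lower at day 6 (13.4%). Sqle, which oxidizes squalene, was at 179, 159.9 and 151 CPM in controls and 186, 171 and 168 with 15 Gy at day 2, and at 104, 120.3 and 99.2 in controls and 48.9, 61.2 and 51.6 with 15 Gy at day 6. The groups overlapped at day 2 and not at day 6, and the interaction was -1.10 ± 0.22 (adjusted p = 0.00651, edgeR). Hsd17b7 and Msmo1, enzymes of the later steps, had interactions of -1.18 ± 0.22 and -0.80 ± 0.16. Sqle, Hsd17b7 and Msmo1 were called with each library left out. The list count of 8 was 4 without the control day 2 library of mouse 2, and also without the 15 Gy day 2 library of mouse 2. The motif TCACNCCAC of sterol-regulated promoters was found on either strand in 1 of 17 list members with a promoter sequence (5.88%) and in 1.44% of all symbols.

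Of the hypoxia and glycolysis genes, 18 of 36 were lower with 15 Gy at day 2. That compares with 4.31% of all genes, and at day 6 25 of 36 were lower (13.4% of all genes), with medians of -0.68 and -1.03. Pdk1, which keeps pyruvate out of mitochondria, was at 174, 180.4 and 158 CPM in controls and 119.9, 94.3 and 110.5 with 15 Gy at day 2, and at 111, 124 and 111 in controls and 26.6, 42.4 and 22.8 with 15 Gy at day 6. Irradiated libraries lay below controls on both days, further so at day 6, for an interaction of -1.25 ± 0.24 (adjusted p = 0.00395, edgeR). Tpi1, a glycolytic isomerase, had an interaction of -1.21 ± 0.22 (adjusted p = 0.00351), with 189.6, 195 and 243 CPM in controls and 81.3, 76.5 and 58.2 with 15 Gy at day 6. Bnip3 and Egln3, both induced by hypoxia, were at -1.20 ± 0.27 and -1.32 ± 0.31, and both calls were lost without the control day 2 library of mouse 2 or the 15 Gy day 2 library of mouse 1, and that of Egln3 also without the control day 2 library of mouse 3. The other classical glycolytic genes Gapdh (-0.41), Aldoa (-0.39) and Pgk1 (-0.02) were not called. The list count of 9 was 2, 4, 3 and 5 without the control day 2 libraries of mouse 2 and mouse 3, the 15 Gy day 2 library of mouse 1 and the 15 Gy day 6 library of mouse 3.

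**Figure D4:**
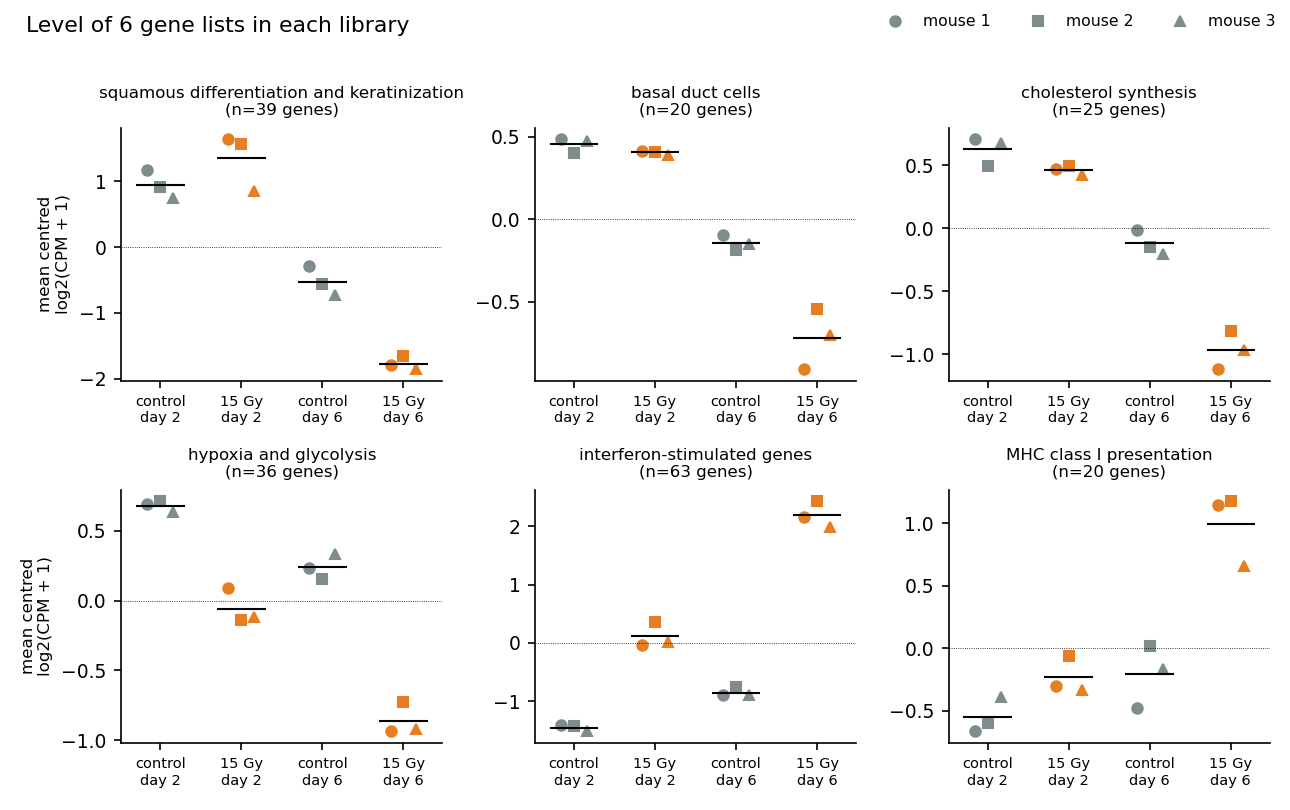
For 6 lists, points give the mean over genes of log2(CPM + 1) after centring each gene over the 12 libraries, for mouse 1 (circle), mouse 2 (square) and mouse 3 (triangle), with lines at the group means. The squamous list spans 0.85 to 1.64 with 15 Gy at day 2 and -1.85 to -1.66 at day 6, and the interferon list -0.03 to 0.36 and 1.99 to 2.43.

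Most interferon-stimulated genes were higher with 15 Gy than in controls on each day, and 13 of 63 had a higher interaction. At day 2, 45 of 63 were higher than in controls (4.07% of all genes) with a median log2 effect of 1.61, and at day 6 59 were higher (11.5% of all genes) with a median of 3.21. The sum of the list was 1538 to 1565 CPM in controls and 2526 to 3057 with 15 Gy at day 2, and 2185 to 2246 and 8722 to 11033 at day 6. An interaction was called for 14 genes, although 34 of 63 had an unadjusted p under 0.05. Over all genes, 2.64% were called and 2145 of 11177 had an unadjusted p under 0.05 (edgeR). The higher count of 13 was 8 or 5 without the control day 2 library of mouse 1 or mouse 2, and 5 without the 15 Gy day 2 library of mouse 1. It was 7 without the control day 6 library of mouse 3 and also without the 15 Gy day 6 library of mouse 2. DESeq2 called 22, the fit without a filter on low counts 23, and the calls held with every library left out for 3 of the 13.

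Those 3 were Ifih1, Lgals9 and Eif2ak2. Ifih1, the cytosolic RNA sensor MDA5, was at 23.3, 31.97 and 21.3 CPM in controls and 46.7, 58.97 and 52.3 with 15 Gy at day 2, and at 22.2, 18.3 and 21.4 in controls and 133, 158 and 122 with 15 Gy at day 6. Controls stayed level while the irradiated libraries, above controls on both days, were higher still at day 6. The effect was 1.04 at day 2 and 2.73 at day 6, with an interaction of 1.69 ± 0.29 (adjusted p = 0.00177, edgeR). Eif2ak2, the RNA-activated kinase that halts translation, went from 53.3, 53.1 and 49.1 CPM to 105, 137 and 113 with 15 Gy and from 26.01, 22.8 and 29.9 to 25.7, 21.2 and 17.3 in controls, an interaction of 1.47 ± 0.32 (adjusted p = 0.0126, edgeR). Lgals9, a galectin, had one of 1.78 ± 0.37 (adjusted p = 0.0102, edgeR). Bst2, which tethers budding virus particles, was at 2.40 ± 0.53 (adjusted p = 0.0155, edgeR), with day 6 values of 26.7, 26.3 and 15.3 CPM in controls and 568, 299 and 260.05 with 15 Gy. Without the control day 2 library of mouse 1 its adjusted p was 0.0528. Irf7, a factor that amplifies interferon production, was at 1.96 ± 0.46, and its call was lost without the control day 2 library of mouse 1 or of mouse 2.

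Most induced members did not pass the test for the interaction. Isg15, a ubiquitin-like modifier, was at 6.599, 5.94 and 11.7 CPM in controls and 52.2, 89.4 and 66.04 with 15 Gy at day 2, and at 13.8, 24.6 and 15.3 in controls and 587, 371 and 177 with 15 Gy at day 6. The spread of the irradiated day 6 libraries was wide, and the interaction of 1.29 ± 0.78 was not called (adjusted p = 0.383, edgeR), except in the fit without a filter on low counts. Ifit1, which binds foreign RNA caps, had effects of 4.78 and 5.48 on the 2 days and an interaction of 0.70 ± 0.91 (adjusted p = 0.731, edgeR). Among the 12 highest interactions, Ifi27l2a at 4.18 ± 1.11 and Rsad2 at 2.41 ± 0.66, were called in only 2 and 3 of the 12 left-out fits. The 1 member with a lower interaction was Ifi27, whose product sits in mitochondria. It was at 67.5, 99.1 and 74.04 CPM in controls and 113, 112 and 127 with 15 Gy at day 2, and at 116, 105 and 98.7 in controls and 59.98, 44.8 and 91.6 with 15 Gy at day 6, an interaction of -1.25 ± 0.28 (adjusted p = 0.0161, edgeR).

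The interferon response element was searched on both strands as GAAA, any 2 bases and GAAA again. It was found in 23 of 48 measured interferon genes with a RefSeq promoter sequence (47.9%), in 6 of 11 called ones, and in 3.99% of all symbols. The window was again from 250 bases before to 50 after the start. Of the called genes, Ifih1 and Eif2ak2 have their match 32 and 18 bases after the start, and Stat2 has it 222 before. Bst2 and Lgals9 are shown because they hold a match in the 200 bases before the start and their calls held in 11 and 12 of the 12 left-out fits. Rsad2, with 3 of 12, also holds one. The 200 bases before the start are on the minus strand at chr8:71537473-71537672 and chr11:78984925-78985124 of GRCm38.p6, from RefSeq, with matches in capitals. In Bst2 a pair of overlapping matches forms a single run.
Bst2: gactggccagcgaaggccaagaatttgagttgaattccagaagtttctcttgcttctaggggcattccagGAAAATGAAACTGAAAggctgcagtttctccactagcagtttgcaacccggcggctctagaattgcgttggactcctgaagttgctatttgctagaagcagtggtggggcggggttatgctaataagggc
Lgals9: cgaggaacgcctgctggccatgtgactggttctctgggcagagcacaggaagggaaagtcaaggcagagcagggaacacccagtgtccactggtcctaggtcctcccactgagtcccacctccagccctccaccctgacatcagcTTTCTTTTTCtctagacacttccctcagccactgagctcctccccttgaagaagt
The run in Bst2 starts 130 bases before the start, and the match in Lgals9, which lies on the other strand, 55 bases before it. Lgals9 also has a match after the start, outside the stretch shown.

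Of the class I presentation genes, 15 of 20 were higher with 15 Gy at day 6 (11.5% of all genes) and 3 at day 2 (4.07%). B2m, the light chain of MHC class I, was at 292, 325 and 341 CPM in controls and 393, 605 and 431 with 15 Gy at day 2, and at 353, 396 and 368 in controls and 1930.1, 2538 and 1871 with 15 Gy at day 6. Irradiated libraries lay above controls on both days, and the interaction was 1.93 ± 0.23 (adjusted p = 9.93e-06, edgeR). The heavy chain gene H2-K1 had an interaction of 1.13 ± 0.26 (adjusted p = 0.0179), which was 0.0513 without the 15 Gy day 6 library of mouse 2. H2-D1 was at 0.90 ± 0.24 and was called in 1 of the 12 left-out fits, and reads of class I genes may be split among close copies. The list count of 4 was 2 without any one of 9 libraries, and 3 to 5 without the control day 2 library of mouse 1 or the 15 Gy day 6 library of mouse 1 or mouse 3. Of 18 nucleic acid sensing genes, Ifih1, Samhd1, Ifi204 and Sting1 were called (2.64% of all genes), and 1 or 2 were without any one of 9 libraries. Mndal, a DNA-binding PYHIN protein outside the lists, was at 14.4, 11.4 and 16.2 CPM in controls and 58.1, 63.2 and 58.6 with 15 Gy at day 2, and at 16.3, 16.6 and 14.2 in controls and 253, 404 and 214 with 15 Gy at day 6, an interaction of 2.11 ± 0.43 (adjusted p = 0.00877, edgeR). Mndal resembles Ifi204, whose interaction of 1.15 ± 0.32 held in 2 of 12 left-out fits.

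Sema3e had the smallest adjusted p among higher genes. This secreted guidance cue was at 27.6, 29.2 and 21.8 CPM in controls and 13.6, 11.7 and 13.8 with 15 Gy at day 2, and at 31.1, 26.3 and 39.7 in controls and 141, 97.7 and 94.3 with 15 Gy at day 6. Irradiated libraries were all below controls at day 2 and all above them at day 6. The effect was -1.02 (adjusted p = 0.00491) and then 1.77 (adjusted p = 1.04e-07), with an interaction of 2.79 ± 0.30 (adjusted p = 1.69e-06), by edgeR. Clu, a secreted chaperone found in regenerating epithelia, had 121, 169 and 152 CPM in controls and 133, 141 and 149 with 15 Gy at day 2, and 139, 107 and 115 in controls and 467, 509 and 738 with 15 Gy at day 6. Its ranges overlapped at day 2, and every irradiated library exceeded every control at day 6, for an interaction of 2.30 ± 0.28 (adjusted p = 1.52e-05, edgeR). Jak2, a kinase of cytokine receptors, moved from -0.54 at day 2 to 0.53 at day 6, an interaction of 1.07 ± 0.18 (adjusted p = 0.0013, edgeR). Cldn1, a tight junction protein, was lower at day 2 (-1.30) and not called at day 6 (0.39), an interaction of 1.70 ± 0.31 (adjusted p = 0.00328, edgeR).

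Stress genes of the ATF4 list split in direction. Nupr1, a small stress-induced chromatin protein, was at 97.4, 106 and 112 CPM in controls and 68.8, 70.6 and 75.5 with 15 Gy at day 2, and at 324, 248 and 254 in controls and 651, 702 and 661 with 15 Gy at day 6. It was below controls at day 2 and above them at day 6, without overlap, and its interaction was 1.84 ± 0.21 (adjusted p = 5.42e-06, edgeR). Ddit3, the transcription factor CHOP, had an interaction of 2.15 ± 0.39 (adjusted p = 0.00328, edgeR), with 30.1, 19.5 and 16.8 CPM in controls and 48.3, 51.6 and 72.1 with 15 Gy at day 6. Shmt2, which supplies one-carbon units in mitochondria, was lower at -1.32 ± 0.25 (adjusted p = 0.00358, edgeR). Atf4 itself was not called, at 0.72 ± 0.24 (adjusted p = 0.0978, edgeR). Matrix genes of the TGF-beta list were called higher in 3 of 27 cases (1.05% of all genes), Lox, Sparc and Ltbp1. None was called without the control libraries of mouse 2 at day 2 or day 6, 1 without control day 2 mouse 1 or control day 6 mouse 3, and 5 without the 15 Gy day 6 library of mouse 1. Lox, which crosslinks collagen, was lower at day 2 (-1.65, adjusted p = 2.5e-05) and not called at day 6 (-0.34, adjusted p = 0.216, edgeR).

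Of 50 p53 targets, 2 had a called interaction, near the share of all genes (2.64%). At day 2, 13 of 50 were higher with 15 Gy (4.07% of all genes) and 1 lower, and at day 6 25 were higher (11.5% of all genes) and 2 lower, while the median interaction was 0.11. Cdkn1a, the inhibitor of cell-cycle kinases, was at 896, 777 and 762 CPM in controls and 1196, 1375 and 1264 with 15 Gy at day 2, and at 1089, 755 and 766 in controls and 1343, 1182 and 1442 with 15 Gy at day 6. It was above controls on both days, its interaction was -0.05 ± 0.22 (adjusted p = 0.926, edgeR), and that value changed sign with library size alone. Mdm2, which degrades p53, had effects of 1.06 and 1.45 and an interaction of 0.39 ± 0.25 (adjusted p = 0.41, edgeR), and Ccng1 one of 0.08 ± 0.16. The 2 called members were Polk, a lesion-bypassing polymerase, and Psrc1, a spindle protein, at 1.13 ± 0.27 and 1.20 ± 0.32. Neither held in all left-out fits, and 0 were called after thinning every library to the lowest total count and without any one of 4 libraries, those of mouse 2 in control day 2, 15 Gy day 2 and control day 6 and that of mouse 3 in control day 2. Without any one of 6 others, 1 was called.

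No gene of the proliferation lists was called by edgeR, against 2.64% of all genes. At that share, lists of this size hold few calls. Of 49 G2 and mitosis genes 0 were called by edgeR, with 5 at an unadjusted p under 0.05 and 1 called by DESeq2. For 45 S phase genes these numbers were 0, 10 and 2. Over all genes, 2145 of 11177 had an unadjusted p under 0.05 (edgeR). The S phase median was -0.32, with 34 of 45 below 0, against 5797 of all 11177 genes. G2 and mitosis genes were lower at day 6 than at day 2 for 46 of 49 in controls (9.15% of all genes) and for 46 of 49 with 15 Gy (14.7% of all genes). Mki67, a marker of cycling cells, was at 113, 123 and 111 CPM in controls and 92.6, 94.6 and 93.95 with 15 Gy at day 2, and at 42.97, 26.9 and 24.4 in controls and 6.14, 59.8 and 14.9 with 15 Gy at day 6. The irradiated day 6 libraries spread widely, with that of mouse 2 above all controls and that of mouse 1 lowest. The interaction of 0.05 ± 0.56 was not called, and without the 15 Gy day 6 library of mouse 2 it was -1.30 (adjusted p = 0.0846, edgeR). Lmnb1, a nuclear lamina protein lost in senescence, was at -0.26 ± 0.22 (adjusted p = 0.572, edgeR), and Acta2 of myoepithelial cells at 0.43 ± 0.69.

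Lower doses of protons gave fewer calls. The same contrast was called for 8 genes at 4 Gy (0.0716%; 6 lower, 0.0537%) and 56 at 7 Gy (0.501%), which share the control libraries with 15 Gy. The 4 Gy count was 13 without the 15 Gy day 6 library of mouse 1, 20 without the 4 Gy day 2 library of mouse 2 and 5 without the 4 Gy day 6 library of mouse 3. The 7 Gy count was 30 without the control day 2 library of mouse 2 or of mouse 3, and 27 or 33 without the control day 6 library of mouse 1 or mouse 2. It was 35 without the 7 Gy day 2 library of mouse 1, the shallowest proton library at 1311666 counts. Without the 7 Gy day 6 library of mouse 1 or mouse 2 it was 25 or 36. Of the 39 squamous genes, 2 were lower at 4 Gy (0.0537% of all genes) and 12 at 7 Gy (0.394%). The median of the squamous list was -0.91 at 4 Gy, -1.41 at 7 Gy and -1.51 at 15 Gy, and that of the interferon list 0.51, 0.81 and 1.14. Single genes differed in how they followed dose. Krt13 was at -1.79, -2.76 and -3.05, Ppbp at -1.65, -2.59 and -2.90, and Sema3e at 1.21, 2.01 and 2.79. Tslp was at -0.01, -1.08 and -2.0, while B2m was at 1.55, 1.98 and 1.93. Differences between doses were not tested.

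Photons at 15 Gy had their own controls and other irradiation days. Their contrast was called for 33 of 11621 genes (0.284%) in a fit of all 48 libraries, 6 higher (0.0516%) and 27 lower. That fit held the photon 4 Gy day 6 library of mouse 3, with only 314409 counts, and was not repeated without it. Since the 295 proton calls came from a fit of the proton libraries alone, the counts of the 2 types are not on a like basis. The difference between radiation types, proton minus photon interaction, was higher for 5 genes (0.043%) and lower for 0, with 524 lower at an unadjusted p under 0.05 and 8 lower by DESeq2. Radiation type and irradiation day cannot be told apart. The 5 genes were Sema3d, Ifih1, Adam12, Bhlhe41 and Dtx3l, and all 5 had a fitted photon interaction below 0 and a proton one above 0. The photon interaction itself was not called for Ifih1, Dtx3l or Bhlhe41 (adjusted p = 0.561, 0.302 and 0.0699, edgeR). The proton one was not called for Adam12 or Bhlhe41 (adjusted p = 0.0898 and 0.116, edgeR). Ifih1 differed by 2.22 ± 0.39 (adjusted p = 0.00867, edgeR). Scaled over all 48 libraries, it was at 84.6, 107 and 104 CPM with 15 Gy of photons at day 6, against 40.05, 34.4 and 29.9 in their controls. At day 2 the photon libraries were at 102, 87.1 and 95.1 CPM and their controls at 26.4, 19.2 and 22.9, so the irradiated photon libraries were at a like level on both days. Sema3d, a secreted semaphorin, differed by 3.76 ± 0.64 (adjusted p = 0.00867, edgeR). These 2 held with each of the 24 libraries left out, although DESeq2 gave Sema3d no adjusted p, and Adam12 was lost only without the photon 15 Gy day 6 library of mouse 3. Among photon libraries, the count of 5 was 2 without 15 Gy day 6 mouse 3, 3 without control day 2 mouse 2, control day 6 mouse 1 or mouse 2 or 15 Gy day 6 mouse 1, and 10, 13 and 14 without 15 Gy day 2 mouse 2, control day 6 mouse 3 and 15 Gy day 6 mouse 2. Among proton libraries it was 3 without 15 Gy day 2 mouse 1 or mouse 2 or control day 6 mouse 3, and 9 without 15 Gy day 6 mouse 3. For the interferon list the median photon interaction was -0.69 and the median difference 1.81, and for the squamous list 0.08 and -1.60. Of these lists only Ifih1 and Dtx3l were called for the difference, both interferon genes. Cholesterol synthesis genes had a median of -0.87 with photons and -0.80 with protons.

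**Figure D5:**
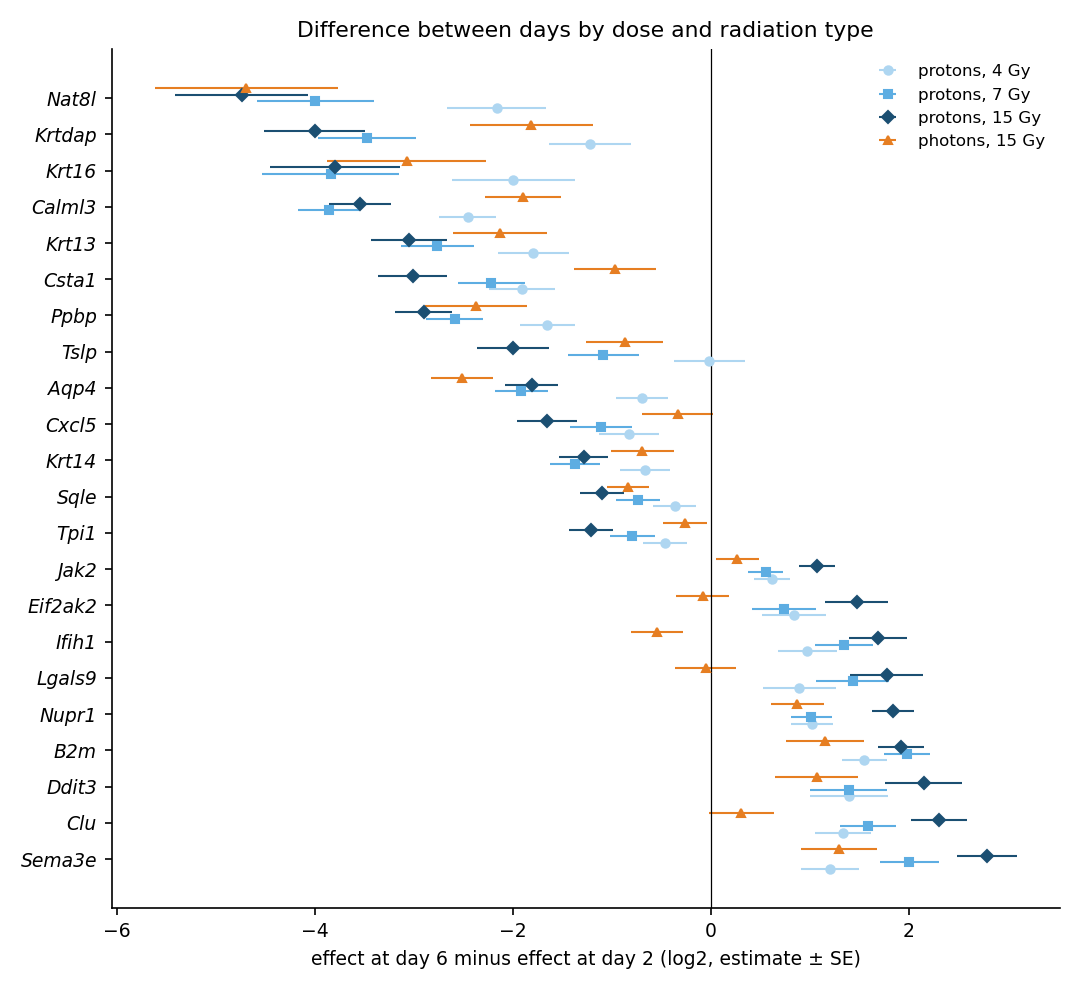
Points give the difference between the day 6 and the day 2 effect on the log2 scale for 22 genes, with bars of 1 SE, for protons at 4, 7 and 15 Gy and photons at 15 Gy. Krtdap and Krt16 reach -4.0 and -3.79 with 15 Gy of protons, and Sema3e reaches 2.79. Ifih1 is positive with protons and at -0.54 with photons, where it was not called.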

How the data were processed

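RNA of 3 mice per group was read with Lexogen QuantSeq 3′ libraries from 100 ng of RNA, per the labels' protocols. The deposited files hold, per gene, whole-number counts of reads that the authors assigned, without normalization. GRCm39 and edgeR are named in the submitters' processing notes. Which aligner and counter were run, with what strand setting and annotation, is not given in the sources used here. Each file lists 47643 identifiers and 5 summary lines, which were left out. Reads outside genes made up 8.32 to 10.8% of the 12 libraries. Symbols came from a GENCODE table of GRCm38 for 47224 identifiers. Deposited CPM tables were not used. Same-numbered samples were put together as replicates of the same mouse by their titles. P-values rest on 3 mice per group, and the labels do not say whether cultures were separate.

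The 24 proton libraries (8 groups, 16 residual degrees of freedom) were fitted with edgeR 4.0.16 (R 4.3.3) after TMM scaling and filterByExpr (minimum count 10). The quasi-likelihood F test was used, and p-values were adjusted by Benjamini-Hochberg over all 11177 genes. Each SE was taken from the log2 fold change and its F. The photon contrast and its difference from protons came from a fit of 48 libraries with 11621 genes. Alternatives were DESeq2 1.42.0, library size scaling, other filters, the 12 libraries alone, thinned counts, the mouse as a block and leaving out each library. Leaving out libraries for the other doses and for photons was added after seeing the data. On simulated counts for the 15 Gy interaction over 11177 genes, with 200 changed, the test recovered 36% of log2 changes of 1 and 80% of 2, with 4.92% false calls. The simulation gave each gene the same spread in every group, whereas in the data replicates of 15 Gy at day 6 differed most.

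The pairing comes from the titles, which number the mice. Over 8225 genes, deviations from group means correlated by -0.052 on average between the 18 same-mouse pairs and by 0.026 between the 36 others. Deviations within a group cancel out, so the average over the others is tied to the first and is not a separate comparison. The comparison, the lists, the motifs and the rule for naming genes were chosen with earlier results of these data known. The rule took the 12 highest and 12 lowest called interactions with a mean of at least 5 CPM in a group, the same sign in 3 mice and a named symbol, up to 4 called members of each list by smallest p, and 12 set genes, 88 in all. Genes outside it were named after their values were seen. Intervals cover counting error only. Promoter sequences are RefSeq's, on GRCm38.p6. One gene is not reported here.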

Additional observations from a re-analysis of the deposited data

Results flagged for a closer look

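For 15 genes the effect of 15 Gy protons was called in opposite directions on the 2 days, and the difference between days was itself called by edgeR's quasi-likelihood test. Higher at day 2 and lower at day 6 were 11 of them. Their interactions were -3.79 for Krt16, -3.01 for Csta1, -2.90 for Ppbp, -2.27 for Spink5, -2.0 for BC100530, -1.65 for Cxcl5, -1.51 for Krt6a, -1.18 for Hsd17b7, -1.17 for Inhbb, -1.15 for Slc22a23 and -0.98 for Selenos. Lower at day 2 and higher at day 6 were Sema3e at 2.79, Nupr1 at 1.84, Jak2 at 1.07 and Ttc3 at 0.88. Of the 15 calls, 12 held with each library left out. The call of BC100530 was lost without the control day 6 library of mouse 1 (adjusted p = 0.0895), and BC100530 and Csta1 are both stefin A genes whose reads may be shared. The largest adjusted p of Slc22a23 and Ttc3 with a library left out were 0.0629 and 0.0623. Slc22a23 was lost without the control or the 15 Gy day 2 library of mouse 2, and Ttc3 without either of these or the control day 6 library of mouse 2.

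The interaction differed between protons and photons for 5 genes in a test of that difference, with values of 3.76 for Sema3d, 2.22 for Ifih1, 2.05 for Adam12, 1.76 for Dtx3l and 1.32 for Bhlhe41. Adam12 was lost without the photon 15 Gy day 6 library of mouse 3, at an adjusted p of 0.0784 (edgeR). Bhlhe41 and Dtx3l were lost in many of the left-out fits, with adjusted p up to 0.0813 and 0.131 (edgeR). Radiation type was given on different days, and the part of that in these differences cannot be told apart.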

How the results depend on the processing

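DESeq2 called 514 genes for the interaction (237 higher and 277 lower), and the fit without a filter on low counts 631 (289 and 342). Library size scaling gave 252 higher genes and the 12 libraries alone 183. With the mouse as a block (paired by the titles), 380 genes were called, 151 higher and 229 lower, and all 295 remained among them. At 4 Gy DESeq2 called 24 genes and the block 17, at 7 Gy 120 and 93, and for proton minus photon 36 and 8. Leaving out 1 library at a time gave 94 to 590 calls for the interaction, 34 to 248 higher and 60 to 342 lower. It gave 480 to 1074 for the effect at day 2, 5 to 20 at 4 Gy, 25 to 70 at 7 Gy and 2 to 14 for proton minus photon. Over all alternatives 66 of the 295 calls held and none changed sign. Values near 0 that were not called did change sign. Cdkn1a was at 0.0638 with library size scaling, 0.0046 without a filter, 0.015 after thinning and -0.14 to 0.15 with a library left out. Mki67 was at -0.0352 with the block and -1.30 to 0.54 with a library left out, Aqp5 at -0.88 to 0.86 and Acta2 at -0.14 to 0.72. Why counts moved was not tested. With a recovery of 36% at a log2 change of 1 in simulated counts, many smaller differences would be missed. Depth was not varied in that simulation, and each gene had the same spread in every group, so its rates may not hold for these data.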

Other observations

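Several called genes outside the lists held with each library left out and had an effect at day 6 alone. They were named after their values were seen. Tnfaip2, a gene induced by tumour necrosis factor, rose between the days in controls from 36.5, 30.1 and 28.4 to 148, 137 and 96.2 CPM, while with 15 Gy it was at 33.8, 27.9 and 22.4 at day 2 and at 20.5, 35.2 and 14.2 at day 6. All irradiated libraries of day 6 lay below their controls. Its interaction was -2.27 ± 0.36 (adjusted p = 0.0007, edgeR). Acadl, which starts the oxidation of long-chain fatty acids in mitochondria, was at 216, 199 and 184 CPM in controls and 532, 564 and 507 with 15 Gy at day 6, an interaction of 1.27 ± 0.23 (adjusted p = 0.00328, edgeR). Peroxide-removing enzymes went both ways. Prdx6 had an interaction of 0.95 ± 0.18 and Gpx1 one of -0.87 ± 0.19. Agrn, a basement membrane proteoglycan, was at 0.95 ± 0.20, with 188, 183 and 170.5 CPM in controls and 258, 389.5 and 383 with 15 Gy at day 6.

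Gja1, a connexin that was lower with 15 Gy on both days, had an interaction of -0.99 ± 0.20. Lower at day 6 only were Gltp, a glycolipid carrier, at -1.26 ± 0.21, Mif, a cytokine, at -0.96 ± 0.22, and Arg1, which splits arginine, at -1.28 ± 0.24. Gsto1, a glutathione transferase, rose in controls from 1796, 2034 and 1872 to 4173, 3621 and 3571 CPM, while the irradiated libraries were at 2194, 2243 and 1714 at day 2 and 2192, 2446 and 2109.8 at day 6, an interaction of -0.86 ± 0.17 (adjusted p = 0.00742, edgeR). Among innate secretory genes, Ltf, which binds iron in saliva and milk, was at 0.388, 2.74 and 3.04 CPM in controls and 9.19, 15.6 and 8.26 with 15 Gy at day 2, and at 364, 267 and 279.9 in controls and 488, 476 and 496 with 15 Gy at day 6. It rose steeply with time in both, its effect was 2.50 at day 2 and 0.68 at day 6, and its interaction was -1.82 ± 0.45 (adjusted p = 0.0299, edgeR), called in 8 of the 12 left-out fits. The sizes of its day 2 effect and its interaction rest on few counts in the day 2 controls.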
